A study of Rattus norvegicus with 39 samples.

Results

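Daily corticosterone injections given over a low-dose pellet were examined in the CA1 field of the rat hippocampus by setting all 10 arrays labelled LowInj against all 10 labelled LowCort, 20 of the 39 arrays of the series. The arrays were chosen by these group labels alone. Every animal was a male Fischer 344 rat (spelled Fisher 344 in its strain label) of 18 months at the end, and each gave 1 Affymetrix array hybridised with RNA from its block of CA1 tissue. Animals of both groups had lost their adrenal glands, carried 1 slow-release pellet of 25 mg corticosterone for 3 months and drank saline with sucrose. LowInj animals also received 5 mg of corticosterone per day by intraperitoneal injection on 4 days at the end of the study. The sources used here mention no vehicle injection for LowCort, so the hormone and the act of injecting cannot be told apart in this comparison. For reference, 9 IntermediateCort animals had no adrenal glands and a 200 mg pellet, and 10 Sham animals, with their adrenals intact, carried a pellet without hormone. The comparison asks what a short, high exposure to the hormone does to CA1 transcripts in animals that have lived on little of it.

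Corticosterone is the main glucocorticoid of the rat. It crosses the cell membrane and binds the mineralocorticoid receptor, which holds it tightly, and the glucocorticoid receptor, which is occupied mainly when levels are high. Both receptors are abundant in CA1 neurons and act as transcription factors, and the glucocorticoid receptor also restrains immune and interferon-driven genes in many tissues.

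The start-site windows of the called genes are described first, because the receptors bind DNA there and elsewhere. Of the 10 genes named below as changed, 9 had an entry among the RefSeq windows of the rat assembly GRCr8, each with 250 bases before and 50 after the annotated start. Dcn was the other. The receptor's single recognition hexamer, AGAACA on either strand, was present in the windows of 3 of the 9, Sult1a1, Ifitm3 and Gal. Over all 33469 windows of this length, 20.7% held it. The full palindrome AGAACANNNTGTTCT, which contains that hexamer, was in 0 of the 9 and in 0.0149% of all windows. The core of the interferon response element, GAAANNGAAA on either strand, was in 1 of the 9, that of Ifitm3, and in 3.92% of all windows. The 250 bases before the start are shown for Sult1a1, which had the largest rise, and for Ifitm3, the one called gene whose window held both motifs. Both lie on the minus strand, at chr1:190706113-190706362 and chr1:205541759-205542008 in GRCr8, and capitals mark the motif matches. The hexamer begins 89 bases before the start of Sult1a1. In Ifitm3 the interferon core begins 44 bases before the start and the hexamer 11 bases before it. A match describes letters only, and binding was not measured.
Sult1a1: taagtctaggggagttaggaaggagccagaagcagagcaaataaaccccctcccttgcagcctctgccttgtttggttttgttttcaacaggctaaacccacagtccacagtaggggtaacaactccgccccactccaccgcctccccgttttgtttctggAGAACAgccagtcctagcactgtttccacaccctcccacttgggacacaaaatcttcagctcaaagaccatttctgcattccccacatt
Ifitm3: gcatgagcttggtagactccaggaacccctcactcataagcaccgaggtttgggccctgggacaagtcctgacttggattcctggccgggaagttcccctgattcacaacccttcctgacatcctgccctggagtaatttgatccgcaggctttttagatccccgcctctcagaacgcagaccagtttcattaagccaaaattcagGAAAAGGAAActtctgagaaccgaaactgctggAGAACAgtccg

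Values are the deposited log2 expression values, so a difference of 1 is a doubling, and a level is not compared between genes. Array medians in the pair lay between 7.27 and 7.32, and each array's median correlation with the other 19 was between 0.982 and 0.994. The lowest 3 of these were LowCort subject 20 (0.987) and LowInj subjects 34 (0.982) and 35 (0.984), and values without those 3 arrays stand beside the results of named genes where they changed a call or moved a named difference above 0.15 by over 1.5 times. The gap between the 3′ and 5′ probe sets of the Gapdh control, which widens when RNA or cDNA is short, was 1.03 ± 0.60 in LowInj and 0.81 ± 0.24 in LowCort (SD, n = 10 each). Its difference of 0.22 had a permutation p of 0.319 (adjusted 0.581 over Gapdh and beta-actin), and LowInj subject 35 had the widest gap at 2.41. The beta-actin gap differed by -0.14 with a permutation p of 0.581, also 0.581 after adjustment. Of 15 genes listed as CA1 pyramidal markers, 8 had a probe set with that symbol alone, with a mean level of 8.93 in LowCort and 8.89 in LowInj. Itpka, Gria1, Camk2a and Nr3c2 were among them, while Wfs1 and Fibcd1 were not measured under those symbols. Of the 8, 5 had a negative difference between LowInj and LowCort. At an unadjusted limma p under 0.05, 2 were lower and 1 was higher, against 2.62% and 4.33% of all genes.

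Few transcripts differed between injected animals and those with the pellet alone, and the largest difference was a rise of Sult1a1. With limma fitted to the 20 arrays and Benjamini-Hochberg adjustment over 8740 probe sets, 16 probe sets (0.183%) had an adjusted p under 0.05 and are termed called. LowInj was higher in 9 of them (0.103% of all tested) and lower in 7 (0.0801%), and 589 had an unadjusted p under 0.05. The median difference over all probe sets was 0.012. In 3 probe sets (0.0343% of all tested) every LowInj array lay outside the range of the LowCort arrays, all on the higher side. Of the 16, 12 carried a single gene symbol and stood for 10 genes. Sult1a1, Csad, Grifin, Gal and Ret rose, while Dcn, Lxn, Ifitm3, Car4 and Serpinh1 fell. In bulk tissue, fewer cells of a type and less RNA per cell cannot be told apart.

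**Figure D1:**
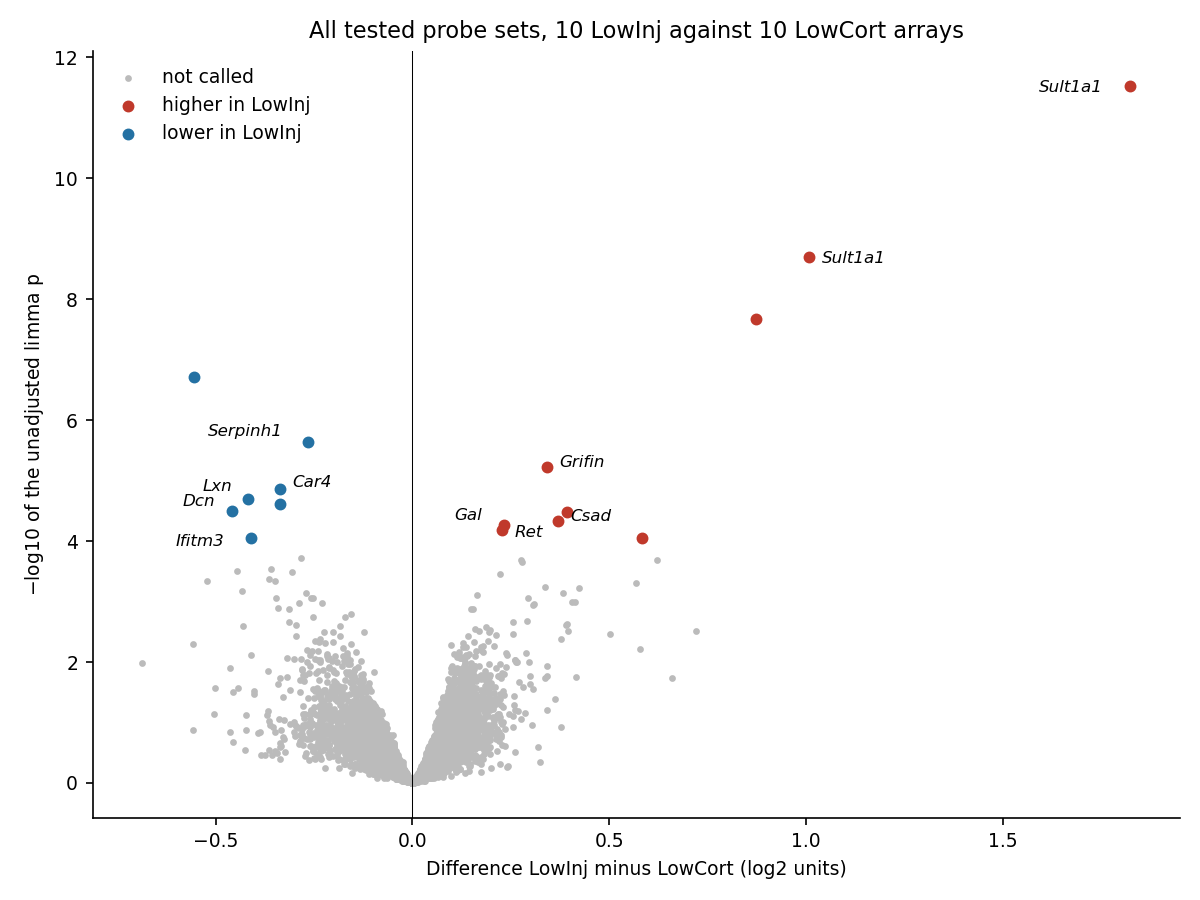
Difference between LowInj and LowCort (x axis, log2 units) against -log10 of the unadjusted limma p (y axis) for 8740 probe sets, with called probe sets coloured and named where they carry a single symbol. The Sult1a1 probe sets stand apart at 1.82 and 1.01, and the other called probe sets lie between -0.55 and 0.87.

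Sult1a1 encodes a phenol sulfotransferase that adds sulfate to phenols and to small hormones and drugs. Its first probe set had a lowest, median and highest level of 4.62, 5.07 and 5.33 in LowCort and of 6.39, 6.89 and 7.59 in LowInj. All 10 injected animals were above all 10 with the pellet alone. The difference was 1.82 ± 0.13 (SE), 3.54-fold, with a limma adjusted p of 2.58e-08. The other probe set ranged from 6.94 to 7.75 in LowCort and from 8.00 to 8.69 in LowInj, again without overlap. It differed by 1.01 ± 0.10 (2.01-fold, limma adjusted p = 8.77e-06), so both probe sets rose but not by the same amount. On the first probe set the mean was 6.75 ± 0.32 in Sham (SD, n = 10) and 6.42 ± 0.72 in IntermediateCort (n = 9), beside 6.87 ± 0.36 in LowInj (n = 10). The difference from Sham was 0.12 ± 0.19 (limma adjusted p = 0.998), and from IntermediateCort 0.45 ± 0.19 (adjusted p = 0.458), neither called. These misses do not show that the levels were equal.

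Grifin, a galectin-related protein first described in the lens, rose as well. Levels ran from 6.89 over a median of 7.03 to 7.20 in LowCort and from 7.18 over 7.33 to 7.73 in LowInj. The ranges met only at their edges, with 9 of 10 LowInj arrays above the highest LowCort array. The difference was 0.34 ± 0.06 (SE), 1.27-fold (limma adjusted p = 0.00859). Sham averaged 7.10 ± 0.13 (SD, n = 10) and IntermediateCort 7.10 ± 0.11 (n = 9), both near the LowCort mean of 7.03 ± 0.09. LowInj exceeded them by 0.27 ± 0.06 each (SE, limma adjusted p = 0.0187 against Sham and 0.0468 against IntermediateCort). These comparisons share the LowInj arrays and come from a fit to all 39 arrays. Fitted to the arrays of each pair alone, Grifin was not called against Sham (adjusted p = 0.188) or IntermediateCort (0.158), nor was it in the larger fit without subjects 20, 34 and 35 (0.0628 and 0.0985).

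The other rises were smaller. Csad, cysteine sulfinate decarboxylase of taurine synthesis, had levels of 7.24 to 7.71 in LowCort (median 7.50) and 7.63 to 8.18 in LowInj (median 7.81). Of the LowInj arrays, 7 of 10 exceeded every LowCort array, and the difference was 0.37 ± 0.07 (SE, limma adjusted p = 0.0335). Its other probe set differed by 0.18 ± 0.06 and was not called (adjusted p = 0.53). On the called probe set, Sham averaged 7.63 ± 0.20 (SD, n = 10) and IntermediateCort 7.51 ± 0.21 (n = 9). LowInj was above them by 0.20 ± 0.08 and 0.32 ± 0.08 (SE), neither called (limma adjusted p = 0.781 and 0.146). The neuropeptide galanin, Gal, had levels of 7.27 to 7.59 in LowCort (median 7.38) and 7.44 to 7.77 in LowInj (median 7.63). The groups overlapped, and the difference was 0.23 ± 0.05 (SE, limma adjusted p = 0.0359). Ret, the receptor tyrosine kinase through which ligands of the GDNF family signal, had low levels of 3.87 to 4.15 in LowCort (median 4.01) and 4.13 to 4.40 in LowInj (median 4.23), with 9 of 10 LowInj arrays above the LowCort range. It differed by 0.23 ± 0.05 (SE, limma adjusted p = 0.0414), while its remaining probe sets differed by 0.07 (adjusted p = 0.815) and -0.04 (adjusted p = 0.903). Sham and IntermediateCort were higher still for this Ret probe set, at 4.51 ± 0.22 (SD, n = 10) and 4.45 ± 0.24 (n = 9).

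The calls of these last rises lay near the threshold, and leaving out any of most single arrays ended them. Csad lost its call without any one of subjects 20, 21, 22, 23, 24, 26, 27, 31, 34, 37, 38 or 39, with limma adjusted p-values of 0.0511 to 0.0904. Gal kept its call only without subject 20, 26, 29, 30 or 32, and was otherwise at 0.0511 to 0.0922. Ret kept it only without subject 20, 26, 28, 29, 35 or 38, and was otherwise at 0.0588 to 0.108. Differences changed little when single arrays were left out, from 0.33 to 0.40 for Csad, 0.22 to 0.25 for Gal and 0.21 to 0.24 for Ret. Without subjects 20, 34 and 35 together, none of Csad (0.31, adjusted p = 0.0753), Gal (0.23, 0.0563) and Ret (0.24, 0.0505) was called.

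Genes of the extracellular matrix and its assembly were among the falls. Serpinh1 encodes the collagen chaperone HSP47 of the endoplasmic reticulum. Its levels were 8.56 to 8.81 in LowCort (median 8.69) and 8.31 to 8.60 in LowInj (median 8.42). In LowInj, 9 of 10 arrays lay below the lowest LowCort array, and the difference was -0.27 ± 0.04 (SE, 1.2-fold lower, limma adjusted p = 0.00401). Sham stood at 8.37 ± 0.11 (SD, n = 10) and IntermediateCort at 8.41 ± 0.09 (n = 9), so the LowCort mean, 8.70 ± 0.07 (n = 10), was the highest of the 4. Dcn encodes decorin, a small proteoglycan that binds collagen fibrils. Its called probe set had levels of 6.83 to 7.46 in LowCort (median 7.04) and 6.30 to 6.96 in LowInj (median 6.57), with 8 of 10 LowInj arrays below the LowCort range. It fell by 0.46 ± 0.09 (SE, 1.37-fold, limma adjusted p = 0.0264). The remaining 3 Dcn probe sets were also lower, by -0.32, -0.25 and -0.24, without a call (adjusted p = 0.6, 0.697 and 0.586). Leaving out subject 22, 23, 24, 28, 33, 34, 37 or 39 ended the Dcn call, at adjusted p-values of 0.0511 to 0.0661.

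Car4, carbonic anhydrase 4, is a membrane-anchored enzyme of brain capillaries, and both of its probe sets fell by the same amount. The brighter one had levels of 9.09 to 9.53 in LowCort (median 9.32) and 8.70 to 9.17 in LowInj (median 8.93). In it, 8 of 10 LowInj arrays were below every LowCort array, a difference of -0.34 ± 0.06 (SE, 1.26-fold lower, limma adjusted p = 0.017). The dimmer one also differed by -0.34 ± 0.06 (adjusted p = 0.0241). Sham, at 8.76 ± 0.10 (SD, n = 10), was 0.20 ± 0.05 (SE) below LowInj, a difference that was not called (limma adjusted p = 0.222). Serpinh1, Grifin, Car4 and Sult1a1 kept their calls whichever of the 20 arrays was left out.

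Lxn encodes latexin, an inhibitor of metallocarboxypeptidases. Levels were 9.05 to 9.55 in LowCort (median 9.32) and 8.70 to 9.19 in LowInj (median 8.85), with 7 of 10 LowInj arrays below the LowCort range. The gene fell by 0.42 ± 0.08 (SE, 1.34-fold, limma adjusted p = 0.0224). Sham stood at 9.13 ± 0.14 (SD, n = 10) and IntermediateCort at 9.17 ± 0.18 (n = 9), above the LowInj mean of 8.91 ± 0.20. The differences of LowInj from these, -0.22 ± 0.07 and -0.26 ± 0.08 (SE), were not called (limma adjusted p = 0.444 and 0.197). The Lxn call against LowCort was lost without subject 23, 34 or 39, at adjusted p-values of 0.0506 to 0.0537.

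Ifitm3, an interferon-induced membrane protein that hinders entry of viruses into cells, had levels of 8.23 to 8.78 in LowCort (median 8.65) and 7.78 to 8.44 in LowInj (median 8.31). All 10 LowInj arrays were below the LowCort mean, and 4 were below its lowest array, subject 20. The fall was 0.41 ± 0.09 (SE, 1.33-fold, limma adjusted p = 0.049). Sham averaged 7.97 ± 0.24 (SD, n = 10) and IntermediateCort 8.07 ± 0.11 (n = 9). When single arrays were left out, the Ifitm3 call held without subject 20, 30 or 31 and was lost without any other, at adjusted p-values of 0.0502 to 0.12. It held without subjects 20, 34 and 35 together (-0.39, adjusted p = 0.0258). Of the called probe sets without a single symbol, the one with several symbols was higher in LowInj by 0.87 (limma adjusted p = 6.29e-05), with ranges of 10.74 to 11.35 and 11.56 to 12.39 that did not overlap. The 3 with none differed by -0.55 (adjusted p = 0.000427), 0.39 (0.0264) and 0.58 (0.049). Sister probe sets by name were not called. They differed by -0.69 and -0.20 for the first (adjusted p = 0.613 and 0.697) and by 0.09 for the last (0.83). None of the called probe sets without a single symbol was counted in the gene lists below, which use probe sets with a single symbol. Called members of those lists may therefore be missing from the counts.

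**Figure D2:**
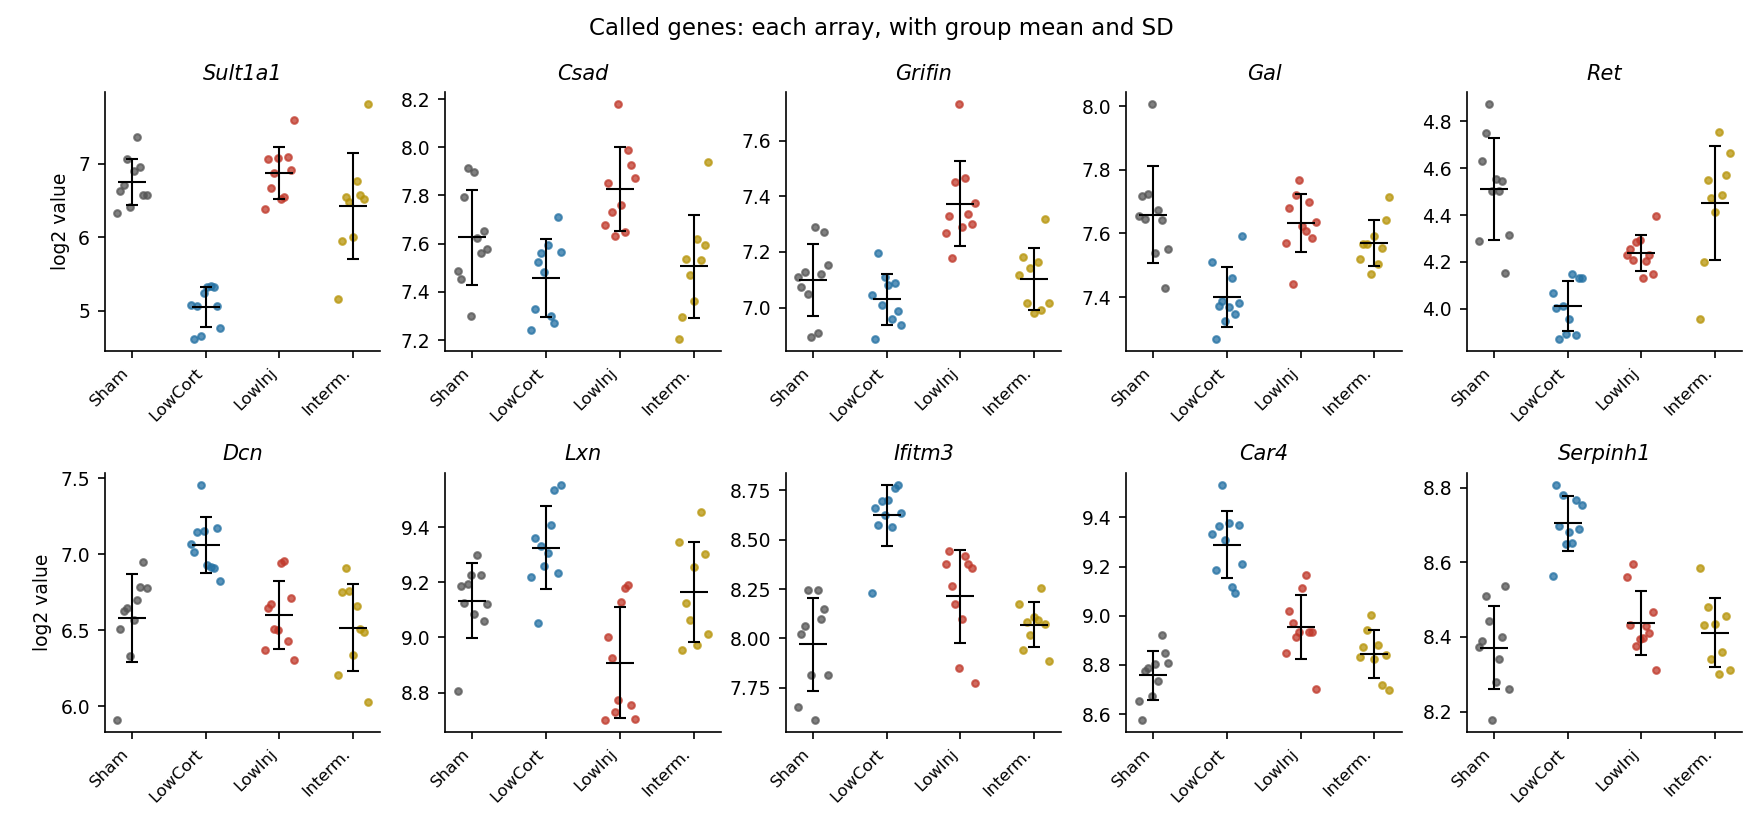
Log2 values (y axis, a separate scale in each panel that does not start at 0) of the 10 called genes in Sham, LowCort, LowInj and IntermediateCort (Interm.), with 1 point per array, the mean as a line and bars of 1 SD, for the called probe set of smallest limma p. Of the genes plotted, Sult1a1 alone has LowInj and LowCort without overlap. The LowInj mean is above all of the other group means in Grifin (7.37), Csad (7.83) and Sult1a1 (6.87).

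Among listed glucocorticoid-induced genes with a probe set of a single symbol, Sult1a1 was called and the others were not. Targets measured only by probe sets with several symbols or none, called ones included, were not covered. Of 43 listed targets, 26 were measured by a probe set with that symbol alone, and using the brightest probe set of each, 1 was called. In the same way, 3 of all 4736 genes were called higher and 4 lower. With Sult1a1 included, 4 of the 26 had an unadjusted p under 0.05, all higher in LowInj. Of the 4736 genes, 4.33% were higher and 2.62% lower at that level. The median difference of the 26 was 0.021, against 0.015 over the 4736 genes. Angiotensinogen, Agt, the precursor of the angiotensin peptides and made by astrocytes in brain, ran from 9.22 to 10.01 in LowCort (median 9.72) and from 9.66 to 10.59 in LowInj (median 10.12), with 7 of 10 LowInj arrays above the LowCort range. Its difference of 0.38 ± 0.10 (SE) was not called (limma adjusted p = 0.194), but without subjects 20, 34 and 35 it was (0.33, adjusted p = 0.0258). Ndrg2 (0.22, adjusted p = 0.619) and the transcription factor Cebpd (0.14, adjusted p = 0.715) were the remaining pair with an unadjusted p under 0.05.

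The kinase gene Sgk1, a classic target of both receptors, gave a contrast with Sult1a1. Its levels were 7.73 to 8.27 in LowCort (median 7.91) and 7.78 to 8.48 in LowInj (median 7.96). The ranges overlapped, with 3 of 10 LowInj arrays above the highest LowCort array. The difference was 0.12 ± 0.10 (SE, limma adjusted p = 0.818). Sham averaged 9.43 ± 0.59 (SD, n = 10), and LowInj differed from it by -1.38 ± 0.17 (limma adjusted p = 9.08e-06). The transcription factor Klf9 differed by 0.16 ± 0.09 on one probe set, or 0.07 without subjects 20, 34 and 35, and by -0.04 ± 0.08 on the other (adjusted p = 0.76 and 0.935). Pdk4, a kinase that shuts off pyruvate dehydrogenase, differed by 0.11 ± 0.06 (adjusted p = 0.75). Fkbp5, Tsc22d3, Per1, Mt1a and Mt2A had no probe set with that symbol alone, so their change is unknown here. Called probe sets with several symbols or none were not assigned to any target.

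The receptors themselves were not called. The brightest probe set of Nr3c1, the glucocorticoid receptor, averaged 7.26 ± 0.09 in LowCort and 7.26 ± 0.05 in LowInj (SD, n = 10 each), a difference of 0.01 ± 0.04 (SE, limma adjusted p = 0.981). The others differed by 0.00 and -0.19 (adjusted p = 0.996 and 0.724). Nr3c2, the mineralocorticoid receptor, ran from 8.34 to 8.99 in LowCort (median 8.65) and from 7.84 to 8.81 in LowInj (median 8.42). Its difference was -0.28 ± 0.11 (adjusted p = 0.651), with 8 of 10 LowInj arrays below the LowCort mean, and its other probe set gave -0.21 ± 0.10 (adjusted p = 0.715). Hsd11b1, which regenerates corticosterone inside cells, differed by 0.08 ± 0.08 (adjusted p = 0.849), and the steroid hydroxylase Cyp7b1 by -0.18 ± 0.09 (adjusted p = 0.728). Of 14 measured genes of this list, 0 were called, against 3 of all 4736 genes called higher and 4 lower by brightest probe set. Nr3c2 and Cyp7b1, both lower, were the members with an unadjusted p under 0.05 (2.62% of all genes were lower at that level).

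**Figure D3:**
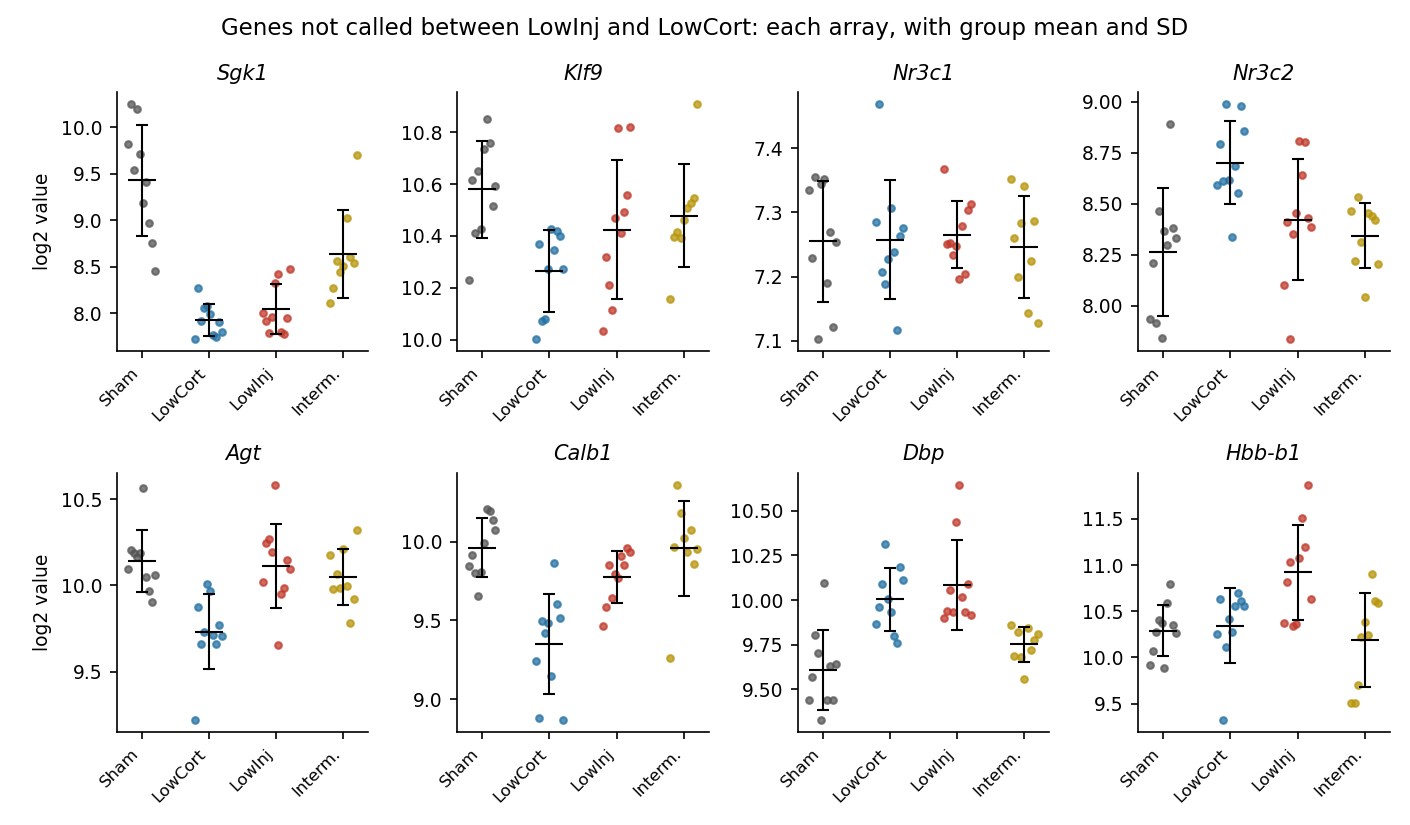
Log2 values (y axis, a separate scale in each panel that does not start at 0) of genes not called between LowInj and LowCort, with 1 point per array, the group mean as a line and bars of 1 SD. Sgk1 in LowInj (mean 8.05) stays near LowCort (7.93) and under Sham (9.43), whereas the Agt mean of LowInj (10.12) is near that of Sham (10.14).

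Most interferon-response genes had a lower mean in LowInj, and Ifitm3 was the one called. Of 30 listed, 18 were measured, and 15 of these had a negative difference, against 2028 of all 4736 genes. Their median was -0.08. With an unadjusted p under 0.05, 4 were lower (against 2.62% of all genes) and 0 were higher. Slfn5, a schlafen family gene, ran from 8.17 to 8.86 in LowCort (median 8.53) and from 7.90 to 8.51 in LowInj (median 8.12). It differed by -0.35 ± 0.08 (SE, limma adjusted p = 0.149), and by -0.41 (adjusted p = 0.0258) without subjects 20, 34 and 35. The immunoproteasome subunit Psmb9 (-0.13, adjusted p = 0.651) and the guanylate-binding protein gene Gbp2 (-0.14, adjusted p = 0.675) were the other members. The average level over the 18 genes, Ifitm3 and Slfn5 included, ran from 6.87 to 6.99 in LowCort arrays and from 6.74 to 6.88 in LowInj arrays. Of 13 measured MHC genes, 0 were called and 10 had a negative difference (median -0.07). B2m, the light chain of MHC class I, differed by -0.21 ± 0.10 (adjusted p = 0.704).

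Microglial markers differed in both directions, and none was called in the fit to the pair. Of 18 measured, 3 were lower and 1 was higher with an unadjusted p under 0.05 (2.62% and 4.33% of all genes). Complement C3 ran from 7.61 to 8.28 in LowCort (median 8.04) and from 7.00 to 8.24 in LowInj (median 7.59), and differed by -0.52 ± 0.13 (SE, limma adjusted p = 0.149). Its other probe set differed by -0.26 (adjusted p = 0.593). C3 was called without LowInj subject 30 (-0.60, adjusted p = 0.0143). The inhibitory Fc receptor gene Fcgr2b ran from 6.33 to 7.25 and from 6.11 to 6.78 in the same order, and differed by -0.43 ± 0.11 (adjusted p = 0.191). In both genes the groups overlapped, and with all 39 arrays in the fit both were called against LowCort (C3, adjusted p = 0.0296, and Fcgr2b, 0.0455). Cd48 differed by -0.28 (adjusted p = 0.6) and the lysosomal protease gene Ctss by 0.16 (adjusted p = 0.742). Aif1, Itgam, Csf1r and Cx3cr1, which define microglia, differed by 0.05, -0.03, -0.01 and -0.01. The average over the 18 markers ran from 7.55 to 7.84 in LowCort arrays and from 7.46 to 7.77 in LowInj arrays, and its part in the fall of Ifitm3 was not tested.

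The matrix list held 37 measured genes of 42. By brightest probe set 1 was called (Serpinh1, lower), and Dcn was called on a dimmer probe set. Over all 4736 genes, 4 were called lower and 3 higher in the same way. At an unadjusted p under 0.05, 6 were lower and 2 were higher, against 2.62% and 4.33% of all genes, while the median was 0.019. Lum, the small proteoglycan lumican, differed by -0.35 ± 0.09 (SE, limma adjusted p = 0.2) and the fibrillar collagen Col5a2 by -0.27 ± 0.09 (adjusted p = 0.583), while the membrane-bound metalloprotease Mmp14 was higher by 0.26 ± 0.07 (adjusted p = 0.357). Col1a1, Col1a2 and Col3a1, abundant collagens of fibroblasts, differed by 0.11, 0.09 and 0.04. Of 14 fibroblast and meningeal markers 10 had a positive difference. The average over all 14, Dcn included, ran from 7.58 to 7.74 in LowCort and from 7.57 to 7.73 in LowInj. The part of such cells in the falls of Dcn and Serpinh1 was not tested.

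Vessel genes included Car4 among 23 measured of 34, with 15 negative differences and a median of -0.03. Besides Car4, Tagln of smooth muscle (-0.16, limma adjusted p = 0.283) and the endothelial transporter Slco1a4 (-0.25, adjusted p = 0.651) were lower at an unadjusted p under 0.05. Pecam1 of endothelium differed by -0.10, Flt1 by 0.06 and Pdgfrb of pericytes by 0.11. The average over the 23, Car4 included, ran from 7.56 to 7.71 in LowCort and from 7.50 to 7.65 in LowInj. The part of vessel cells in the fall of Car4 was not tested.

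Blood genes had higher means in LowInj, and none was called. Of 13 measured, 12 had a positive difference (2708 of all 4736 genes did), and 3 were higher at an unadjusted p under 0.05. Alas2, which starts heme synthesis in red cells, ran from 8.37 to 8.88 in LowCort (median 8.65) and from 8.73 to 9.37 in LowInj (median 8.91), a difference of 0.31 ± 0.08 (SE, limma adjusted p = 0.222). The globin genes Hbb-b1 and Hbb, whose probe sets may bind transcripts of near-identical copies, differed by 0.58 ± 0.19 (adjusted p = 0.575) and 0.66 ± 0.26 (adjusted p = 0.658). The T-cell marker Cd3d differed by 0.03 and Cd8a by 0.04. The average over the 13 ran from 6.77 to 7.10 in LowCort and from 7.02 to 7.42 in LowInj, and its part in the other differences was not tested.

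No gene of the synaptic, channel or neurotransmitter receptor lists was called. By brightest probe set, 3 of all 4736 genes were called higher and 4 lower, so 0 calls says little about these lists. Calb1, the calcium buffer calbindin, ran from 8.87 to 9.86 in LowCort (median 9.45) and from 9.46 to 9.96 in LowInj (median 9.82). All 10 LowInj arrays were above the LowCort mean, and the difference was 0.42 ± 0.11 (SE, limma adjusted p = 0.172). Calb1 was called without LowCort subject 26 (0.48, adjusted p = 0.0497). It is also listed as a marker of dentate gyrus granule neurons, of which 4 of 5 measured had a positive difference (57.2% of all genes did). The part of such cells in the Calb1 difference was not tested. Hippocalcin, Hpca, a calcium sensor of hippocampal neurons, was higher by 0.39 ± 0.11 (adjusted p = 0.366). Among 38 genes of glutamate receptors and spines, 4 were higher and 1 was lower at an unadjusted p under 0.05. Wipf3, of an actin-binding family, ran from 9.70 to 10.63 in LowCort (median 10.31) and from 10.41 to 11.55 in LowInj (median 10.83). It differed by 0.57 ± 0.14 (adjusted p = 0.156), and without subjects 20, 34 and 35 by 0.70 (adjusted p = 0.0472). Its other probe sets differed by 0.07 and 0.30 (adjusted p = 0.88 and 0.692). Itpka, an inositol trisphosphate kinase of dendritic spines, differed by 0.40 ± 0.12 (adjusted p = 0.41), and the scaffold gene Homer2 by -0.11 (adjusted p = 0.69). The metabotropic receptor Grm2 differed by 0.20 (adjusted p = 0.715).

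Most interneuron markers had a higher mean in LowInj, and none was called. Of 19 measured, 14 had a positive difference, against 57.2% of all genes, and the median was 0.08. At an unadjusted p under 0.05, 4 were higher and 0 lower, against 4.33% and 2.62% of all genes. Slc32a1, the vesicular GABA transporter, ran from 9.61 to 10.17 in LowCort (median 9.92) and from 9.96 to 10.33 in LowInj (median 10.17), a difference of 0.21 ± 0.07 (SE, limma adjusted p = 0.433). Somatostatin, Sst, differed by 0.30 ± 0.12 (adjusted p = 0.651) and by 0.18 without subjects 20, 34 and 35, the GABA-synthesising enzyme Gad1 by 0.17 ± 0.07 (adjusted p = 0.658) and calretinin, Calb2, by 0.15 ± 0.05 (adjusted p = 0.647). Pvalb and Cck, which mark other interneuron classes, differed by -0.06 and -0.10. Among 18 inhibitory receptor genes, Gabrb1 differed by 0.30 ± 0.11 (adjusted p = 0.601), or 0.14 without subjects 20, 34 and 35, and Glra2 differed by -0.20 ± 0.07 (adjusted p = 0.601). Gal belongs to the list of neighbouring forebrain regions, of which 9 of 12 measured genes had a positive difference. Avp, the vasopressin gene of hypothalamic neurons, differed by 0.13 (adjusted p = 0.697) on one probe set and by 8e-04 and 0.0077 on the others, and Ddc, of monoamine neurons, by -0.11 (adjusted p = 0.715), and the part of tissue from outside CA1 in the rise of Gal was not tested.

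Genes that respond to neuronal activity stayed without calls, as did nearly all genes measured. Among 22 measured immediate early genes, 0 were called and 0 had an unadjusted p under 0.05. Of all genes, 4.33% were higher and 2.62% lower at that level. The differences ran from -0.19 to 0.14. Arc, a synaptic activity gene, ran from 9.44 to 10.41 in LowCort (median 9.95) and from 9.52 to 10.46 in LowInj (median 10.05), and differed by 0.10 ± 0.14 (SE, limma adjusted p = 0.903). The nuclear receptor gene Nr4a1 differed by 0.08 and 0.13 on its probe sets (adjusted p = 0.908 and 0.857). The growth factor gene Bdnf had 7 probe sets with differences of -0.06 to 0.06. Among clock genes, Dbp differed by 0.08 ± 0.09 and 0.07 ± 0.09 (adjusted p = 0.866 and 0.889), while both probe sets were 0.48 ± 0.09 above Sham (limma adjusted p = 0.00613 with all 39 arrays, and 0.107 in a fit to LowInj and Sham alone). The clock repressor Nr1d1 ran from 8.35 to 8.86 in LowCort (median 8.51) and from 8.60 to 9.49 in LowInj (median 8.79), and differed by 0.41 ± 0.11 (adjusted p = 0.219), against 0.22 on its other probe set (adjusted p = 0.651).

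Metabolic and housekeeping lists held no call. With 3 of all 4736 genes called higher and 4 lower by brightest probe set, this says little about their members. Of 15 measured genes of cholesterol synthesis, 12 had a negative difference, with a median of -0.04. Cyp51, the lanosterol demethylase, ran from 9.18 to 9.66 in LowCort (median 9.43) and from 8.89 to 9.32 in LowInj (median 9.06). In it, 7 of 10 LowInj arrays were below the LowCort range, and the difference was -0.30 ± 0.07 (SE, limma adjusted p = 0.125). Its other 4 probe sets, none called, differed by -0.22 to 0.04. Of 28 oxidative phosphorylation genes and 35 cytosolic ribosomal protein genes, 0 had an unadjusted p under 0.05, with medians of 0.03 and -0.03. The muscle-type glycogen phosphorylase gene Pygm, which also serves astrocytes, was higher by 0.39 ± 0.11 (adjusted p = 0.377), and by 0.55 (adjusted p = 0.000486) without subjects 20, 34 and 35. With all arrays, 8 of 10 LowInj arrays were above every LowCort array and 2 were below every one. The other Pygm probe set differed by 0.38 ± 0.23 (adjusted p = 0.76). Gsta1, a glutathione transferase whose probe set may also bind related family members, differed by -0.36 ± 0.09 (adjusted p = 0.149). Of 15 cell cycle genes, Ccnd2 (-0.26, adjusted p = 0.2), Cdk1 (-0.25, adjusted p = 0.306) and Ccnd1 (-0.16, adjusted p = 0.679) were lower at an unadjusted p under 0.05. The other 4 Ccnd1 probe sets differed by -0.12 to 0.05. Ccnd2 was called without LowCort subject 21 (-0.30, adjusted p = 0.0254).

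**Figure D4:**
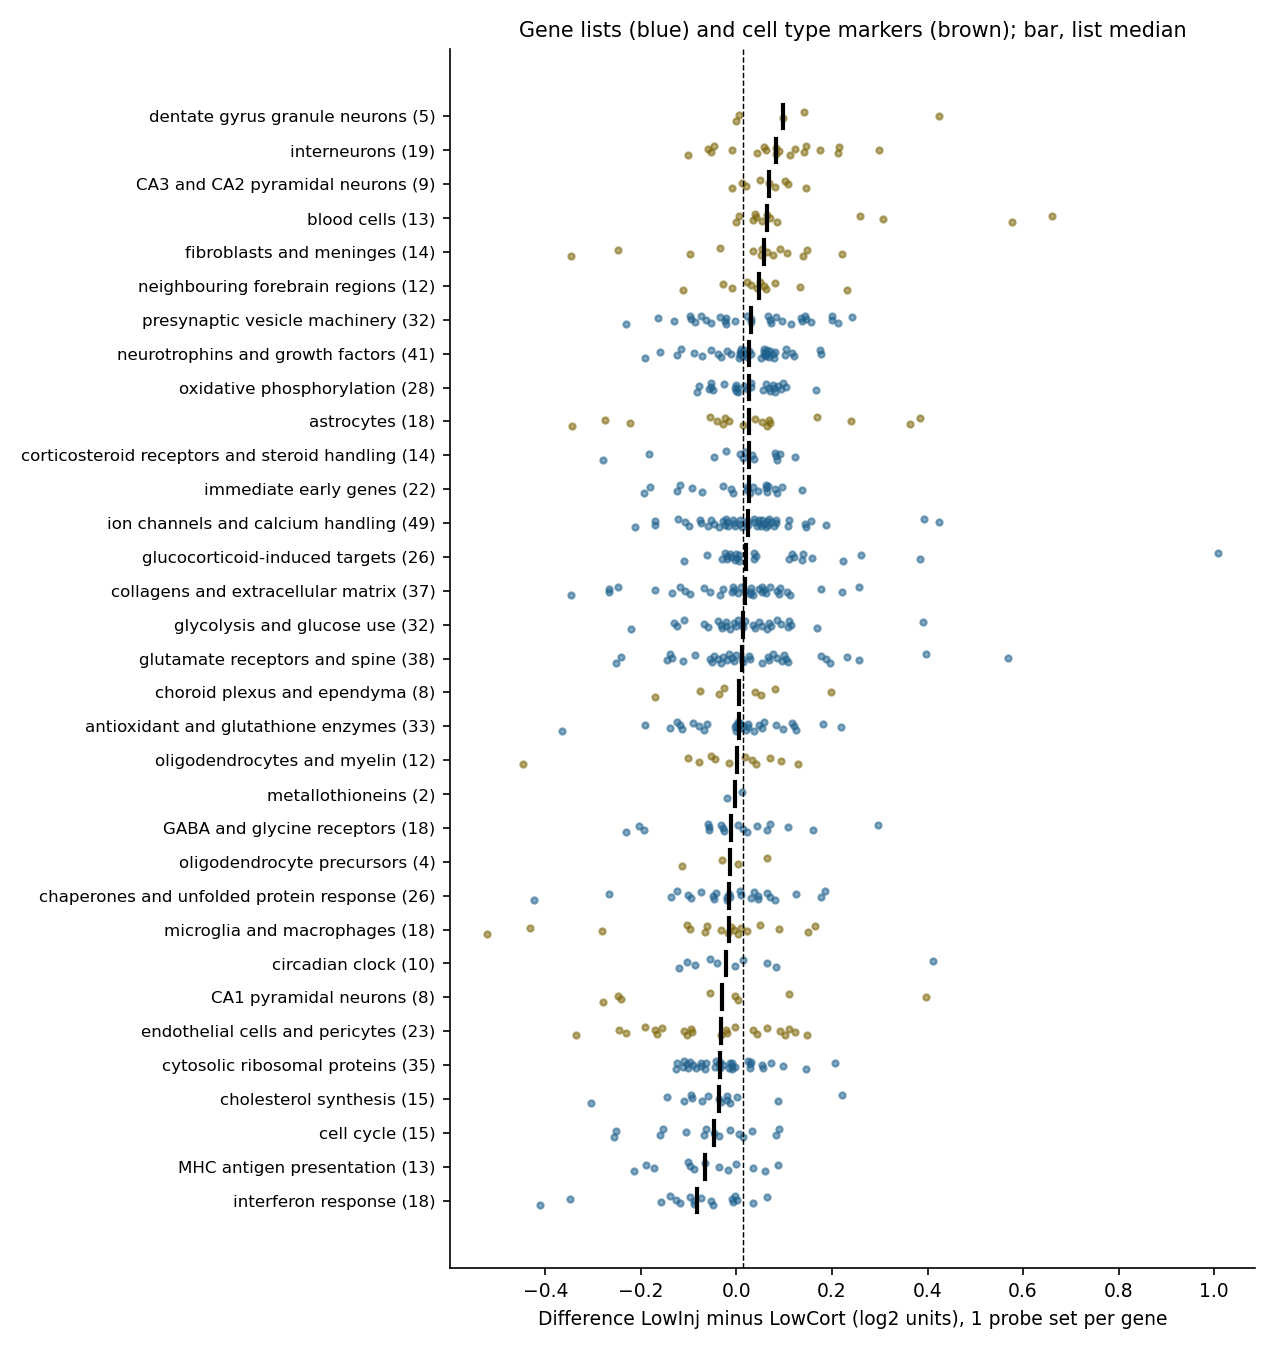
Difference between LowInj and LowCort (x axis, log2 units) for each measured gene of 33 lists, with 1 probe set per gene, pathway lists in blue, cell type lists in brown, list medians as short bars, the number of measured genes in brackets and a dashed line at the median of all genes. List medians run from -0.08 (interferon response) to 0.10 (dentate gyrus granule neurons, 5 genes), and Sult1a1 is the point at 1.01.

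Glial markers gave mixed values. Of 21 listed astrocyte genes, 18 were measured, and the main marker Gfap had no probe set with that symbol alone. The called probe sets without a single symbol could not be placed in this list or left out of it. Among the 18 genes, 2 were higher and 1 was lower at an unadjusted p under 0.05. These were Agt, the lipid-binding protein gene Fabp7 (0.36 ± 0.17, SE, limma adjusted p = 0.715) and clusterin, Clu (-0.28 ± 0.11, adjusted p = 0.673). Without subjects 20, 34 and 35, Clu differed by -0.15. Among 12 oligodendrocyte genes Klk6, a secreted protease of mature oligodendrocytes, ran from 8.36 to 9.04 in LowCort (median 8.81) and from 7.80 to 8.67 in LowInj (median 8.31). Its difference was -0.45 ± 0.10 (adjusted p = 0.123), and no other member had an unadjusted p under 0.05.

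Injected animals were also set against the larger pellet and against intact animals, in a limma fit to all 39 arrays. Against IntermediateCort, 10 of 8740 probe sets were called (0.114%), 6 higher and 4 lower in LowInj, and against Sham 11 (0.126%), 6 higher and 5 lower. A fit to the arrays of each pair alone gave 0 and 1, the latter being Sgk1, lower in LowInj than in Sham (adjusted p = 0.00234). Without subjects 20, 34 and 35 the counts were 9 (5 of the 10 shared) and 11 (9 of the 11 shared). Of the 10 genes called against LowCort, Grifin was the one also called here. Camk2a, a kinase of the postsynaptic density, averaged 8.28 ± 0.17 in IntermediateCort (SD, n = 9) and 7.70 ± 0.39 in LowInj (n = 10), a difference of -0.57 ± 0.12 (SE, limma adjusted p = 0.0345). Subjects 34 and 35 were low, at 6.96 and 6.98, while the other LowInj arrays ran from 7.76 to 8.00, and without subjects 20, 34 and 35 the difference was -0.39 and not called (adjusted p = 0.0919). The other Camk2a probe set differed by -0.10 (adjusted p = 0.768). Fabp7 was higher in LowInj by 0.83 ± 0.16 (adjusted p = 0.0162) and Mmp14 by 0.33 ± 0.07 (adjusted p = 0.0498). Without the 3 arrays Fabp7 kept its call (0.95, adjusted p = 0.00205) and Mmp14 lost it (0.27, adjusted p = 0.183). The cytokine gene Il33, chosen after its values were seen, was above IntermediateCort by 0.62 ± 0.11 (adjusted p = 0.00667) and above Sham by 0.51 ± 0.10 (adjusted p = 0.0143), calls that held without the 3 arrays (0.00205 and 0.0158). Its difference from LowCort was 0.40 ± 0.11 and was not called (adjusted p = 0.219). Insig1 was also called below IntermediateCort (-0.40, adjusted p = 0.0162) and Sham (-0.37, 0.0143). Tnfrsf11b was called above both (0.30, adjusted p = 0.0252, and 0.31, 0.0101). Of the listed glucocorticoid targets, Errfi1, on a dimmer probe set (-0.44, adjusted p = 0.00613), and Nfkbia (-0.32, 0.0304) were called below Sham, as was Sgk1. In the pair with LowCort, Insig1 and Tnfrsf11b each differed by -0.09 (limma adjusted p = 0.812 and 0.811). Errfi1, on that probe set, differed from LowCort by 0.02 (0.967) and Nfkbia by -0.02 (0.955), so none was called there. The labels state continued saline and sucrose for the animals with the low pellet, so drinking fluid and hormone cannot be told apart in the comparisons with IntermediateCort and Sham.

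**Figure D5:**
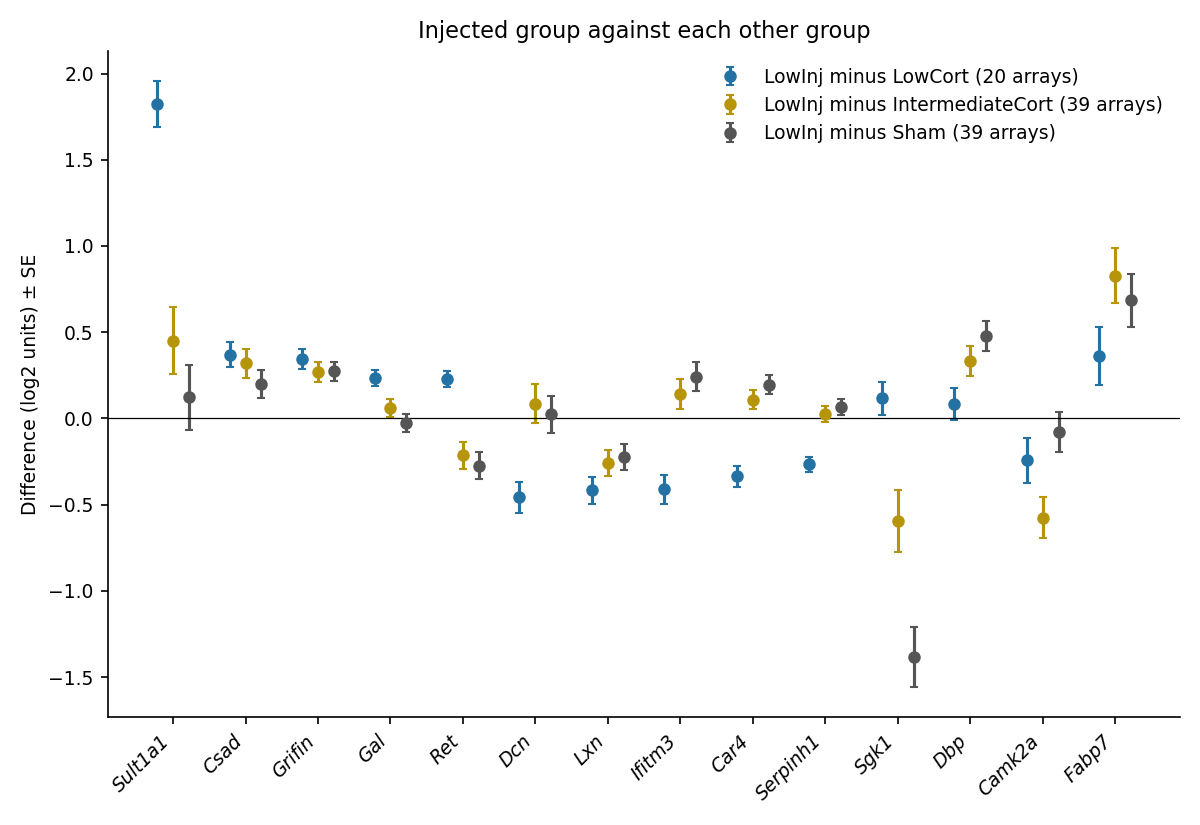
Differences of LowInj from LowCort, IntermediateCort and Sham (y axis, log2 units) with bars of 1 SE for the 10 called genes and 4 others. Sult1a1 is far above LowCort (1.82) and near Sham (0.12), Sgk1 is near LowCort (0.12) and under Sham (-1.38), and Grifin is above every group (0.34, 0.27 and 0.27). Differences from all of the groups are also positive for Sult1a1, Csad (0.37, 0.32 and 0.20), Fabp7 and Dbp.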

How the data were processed

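Transcripts were measured on 39 Affymetrix rat arrays, 1 per animal, of which 20 form the main comparison. Per the labels' protocols, total RNA of CA1 blocks was made into biotin-labelled cRNA. The authors deposited log2 expression values for 8799 probe sets, from 2.82 to 14.37. MAS5, RMA and R 2.7.1 appear in the submitters' processing notes, and the tool that made the values is not given in the sources. That the scale is log2 was read from the values. No further normalization was applied. Arrays hold no read depth, and their number limits the precision.

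Groups came from the titles. Subject numbers are unique to an animal, so no block entered the design. After 59 control probe sets were removed, 8740 were tested, of which 7006 carried 1 gene symbol in the platform annotation (4736 genes), 308 several and 1426 none. Genes were named only from probe sets with 1 symbol. Each comparison was fitted with limma 3.58.1 in R 4.3.3 (18 residual degrees of freedom for the pair, 35 for all 39 arrays), two-sided, with Benjamini-Hochberg adjustment over all 8740 and calls at an adjusted p under 0.05. The script was tested on simulated data. RNA-length gaps were compared by two-sided permutation tests of 100000 resamples in Python 3.11.15.

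Named genes were called genes with 1 symbol, up to 4 members of each of 33 lists with the smallest p, and fixed glucocorticoid-related genes. From these the text gives those that fit each paragraph. Members of a list mentioned as its defining markers were added for reference. Il33, Insig1, Tnfrsf11b, Errfi1 and Nfkbia were added after their values were seen. The groups, lists and named genes were chosen with earlier results of these data known. Lists are described by counts and medians of the brightest probe set per gene, not tested. Alternatives were another filter, fit, normalization, variance prior, array weights, RNA-length or subject-order covariates and leaving out arrays. Leaving out subjects 20, 34 and 35 was chosen after seeing the data. Start-site windows were searched for motifs by script.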

Additional observations from a re-analysis of the deposited data

Results flagged for a closer look

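Within groups, 12 of 168 sets of arrays (7.14%) held a highest or lowest array set far from the others by Dixon's ratio, where chance marks about 1 in 20. LowInj subject 34 was highest for Grifin (7.73, next 7.46), Itpka (11.63, next 11.10) and Rab3b (10.21, next 9.76). LowCort subject 20 was lowest for Ifitm3 (8.23, next 8.57) and Agt (9.22, next 9.66). LowCort subject 22 was lowest for the globin genes Hbb-b1 (9.32, next 10.11) and Hbb (9.60, next 11.04) and for the growth factor gene Igf1 (10.79, next 11.05). LowCort subject 21 was lowest for Ccnd2 (8.63, next 8.98), and LowInj subject 37 for Col5a2 (6.93, next 7.27). In Sham, subject 1 was lowest for Lxn (8.81, next 9.06) and subject 5 highest for Gal (8.01, next 7.72). Subjects 20 and 34 are among the 3 arrays with the lowest correlation to the rest of the pair.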

How the results depend on the processing

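The count of 16 called probe sets in LowInj against LowCort became 14 with a filter at the 30th percentile of mean value, 22 with all 39 arrays in the fit (13 shared), 13 with quantile normalization or median centring, 15 with a trended robust prior, 17 with RNA-length covariates and 20 with subject order. It moved by over 1.5 times with array weights (37, all 16 shared) and with 1 probe set per gene (6 of 4736). Leaving out single arrays gave 7 to 18 calls, with 10 without subject 21, 9 without 22 or 37, 7 without 23 or 34, and 8 without 24 or 39. Without subjects 20, 34 and 35 it was 20, of which 10 were shared. Against IntermediateCort the 10 calls became 0 with only both groups' arrays and 16 with RNA-length covariates. Against Sham the 11 calls became 1 and 18. Ret lost its call with all 39 arrays, Gal and Ret with either normalization, Ifitm3 with the robust prior, and Gal and Ifitm3 with RNA-length covariates. Ifitm3 also lost its call with 1 probe set per gene (6 calls in all). The cause was not tested. Signs turned only for genes near 0 that were never called. These were Nr3c1 in 3 leave-one-out fits (range -0.0084 to 0.0308, with -4e-04 and -0.0042 among them), Arc (-0.0067), Nr4a1 (-0.0054) and Dbp (-0.018) with RNA-length covariates, and Nr4a1 (-0.019), Bdnf (-0.0041) and Dbp (-0.046) without the 3 arrays. The Gapdh gap difference ran from 0.067 to 0.28 and the beta-actin one from -0.29 to -0.058 when single arrays were left out. No paired analysis was possible because no 2 groups share a replicate number. Array weights brought 10 further named genes past the threshold and the fit to all 39 arrays 6 (Agt, Alas2, C3, Fcgr2b, Klk6 and Slfn5). No detection calls were used, so how far low levels such as that of Ret stand above background is unknown.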

Other observations

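Genes of neurotrophin and growth factor signalling were measured for 41 of 44 listed, with 0 called and 30 of 41 differences positive (57.2% of all 4736 genes were positive). At an unadjusted p under 0.05, 3 were higher in LowInj, Igf1 (0.17, limma adjusted p = 0.737), the binding protein gene Igfbp6 (0.18, adjusted p = 0.712) and the ligand gene Nrg1 (0.12, adjusted p = 0.715). The other probe sets differed by -0.04 to 0.09 for Igf1 and by -0.05 to 0.10 for Nrg1. Without subjects 20, 34 and 35, Igf1 differed by 0.10 and Igfbp6 by 0.05. Of 26 chaperone genes, Hspa1a, an inducible heat shock protein, differed by 0.18 (adjusted p = 0.715), or 0.10 without the 3 arrays. Among 9 markers of CA3 and CA2 neurons 8 had a positive difference, with a median of 0.07 and 0 members under an unadjusted p of 0.05. The presynaptic gene Rab3b differed by 0.20 (adjusted p = 0.691), or 0.11 without the 3 arrays, and the glycolytic gene Pgam1 by 0.11 (adjusted p = 0.742).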
